A study of Mus musculus with 1814 samples.

Results

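Dark zone S phase cells are germinal center B cells that were labelled as dark zone cells and whose RNA placed them in the DNA synthesis phase of the cell cycle. They were taken as the Dec-positive dark zone wells of experiments 3 and 4 that the authors' cell table gave as phase S. This gave 81 S phase cells of 247 dark zone cells in experiment 3 and 90 of 254 in experiment 4, out of 1814 wells in the series. The other dark zone cells were 89 G1 and 77 G2M cells in experiment 3, and 76 G1 and 88 G2M cells in experiment 4. Each well held 1 cell of a mouse germinal center, index-sorted and sequenced by SmartSeq2, a method that reads whole transcripts and carries no molecular identifiers. All cells shared the labels Dec_Positive and Dark_Zone, their genotype was given as NA, and they differed by a time of 12, 30, 46 or 60 h. The authors had marked 97 of these 501 dark zone cells for both zones, among them 35 S phase cells. The labels name neither an agent nor the event from which the hours run, and no animal, age or sex. Experiment 3 gave 11, 21, 23 and 26 S phase cells at 12, 30, 46 and 60 h, and experiment 4 gave 16, 25, 20 and 29.

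Germinal center B cells alternate between the light zone, where they capture antigen and receive T cell help, and the dark zone, where they divide and mutate their antibody genes. Antigen coupled to an antibody against the receptor DEC-205 is an established way to give chosen B cells strong T cell help, after which they divide repeatedly in the dark zone. Entry into S phase is set by cyclin-dependent kinases and the E2F transcription factors. Replication origins are first licensed with the MCM helicase, which is later fired and followed by polymerases, nucleotide supply and the packing of new DNA into chromatin.

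The phase was not independent of the RNA. In 501 of 501 dark zone cells the phase followed the higher of the deposited S and G2M scores, with G1 given where neither was above 0. The mean over the known S phase list of 46 genes, of which 44 were in the table, correlated with the deposited S score across cells at r = 0.956 in experiment 3 and 0.946 in experiment 4. Genes of the S and G2M lists, which include Mcm2, Cdc6 and Uhrf1, are therefore described without a test. All other genes were read in the same cells from which the phase was called, so their tests are not independent of that call either. The fluorescence recorded by the sorter is independent of the sequencing. The S score of S phase cells ran from 0.0069 to 1.90 with a median of 0.899, so cells just inside the cut had scores close to the highest G1 value of -0.00462. A distance below 0.20 from a cut was found for 24 S phase cells, and 76 S phase cells also had a G2M score above 0.

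Cells were summed by experiment, time and phase, and these sums served as samples. They held 8 sums for S, 8 for G1 and 7 for G2M, since the G2M sum of experiment 3 at 12 h had 6 cells and was left out of the gene tests. Levels are CPM, the counts of a gene scaled to the same total in every sum (TMM), without correction for transcript length, so they compare samples and not genes. S phase sums held 2534791 to 8507109 counts, and the phases were compared within each experiment and time. Since the labels name no animal, p-values measure the spread between these sums, which may be partly technical. In such sums fewer cells with an RNA and less of it per cell cannot be told apart.

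The known S phase markers followed the label. Mcm2, a subunit of the replicative helicase, was at 502, 843 and 1160 CPM (lowest, median and highest) in the 8 S sums, against 56.8, 300 and 399 CPM in G1 and 254, 316 and 437 CPM in G2M. Cdc6, which loads that helicase onto origins, was at 76.3, 229 and 262 CPM in S, 0, 7.95 and 88.3 CPM in G1, and 26.4, 54.6 and 98.3 CPM in G2M. Uhrf1, which guides maintenance DNA methylation to newly replicated DNA, was at 240, 431 and 553 CPM in S, 0, 47.4 and 155.5 CPM in G1, and 130.6, 241 and 411 CPM in G2M. The S sums of Mcm2 stood above all sums of the other phases, those of Uhrf1 above all G1 sums, and those of Cdc6 overlapped both because of 1 S sum. That sum, experiment 4 at 46 h, was the lowest of the 8 for Mcm2, Cdc6 and Uhrf1. Per cell, at least 1 read of Cdc6 was found in 67.3% of S phase cells (exact 95% interval 59.7 to 74.2), 5.45% of G1 cells (2.52 to 10.1) and 21.2% of G2M cells (15.2 to 28.3). With every cell thinned to 10000 reads these shares were 59.6%, 3.64% and 17.6%. These intervals, and all others over cells, cover counting error only.

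**Figure D1:**
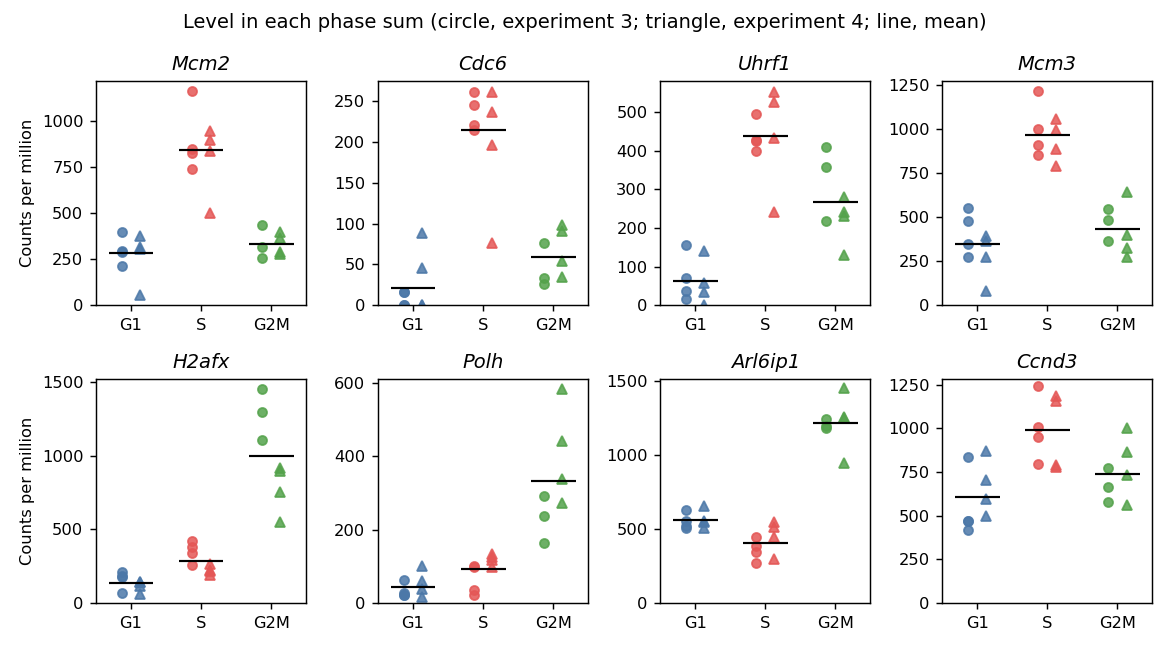
Level of 8 genes in CPM (y axis, linear, from 0) in the G1, S and G2M sums (x axis); circles are experiment 3, triangles experiment 4, and lines the mean of a phase. Mcm2 and Mcm3 have all S sums above all others (Mcm2 at 502 to 1160 in S), while H2afx, Polh and Arl6ip1 have all S sums below all G2M sums (H2afx at 193 to 421 against 547 to 1454).

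Among genes outside the score lists, 534 of 9187 tested passed an adjusted p of 0.05 between S and G1 (edgeR's quasi-likelihood test, Benjamini-Hochberg over all genes), which is 5.81%. Of these, 383 were higher in S (4.17%) and the rest lower (1.64%). Over all genes tested, the S sums lay wholly above the G1 sums for 1.73% and wholly below for 0.108%. S phase cells also had more detectable genes than G1 cells. At 10000 reads per cell the median S phase cell had 2191 genes in experiment 3 and 2249 in experiment 4, against 1543 and 1429.5 in G1. The paired difference was 689 ± 231 genes (SD, n = 8 pairs), with S higher in 8 of 8 pairs and p = 0.0156 after adjustment over 2 comparisons (exact sign-flip permutation test, two-sided). This number moved with every difference between S and G1, and its part in the gene results was not tested. The median log2 difference between S and G1 over all genes tested was 0.20.

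Some of the genes that make and fire replication origins were higher in S than in G1. The gene lists used here and below were chosen with earlier results of these data known. Their counts describe the lists and are not independent evidence. Of 12 listed licensing genes outside the score lists, 5 rose and none fell, with a median log2 difference of 1.33 over the 12. Mcm7, a helicase subunit, stood at 679 to 921 CPM in S and 45.8 to 293 CPM in G1. The 2 sets of sums did not overlap, and the log2 difference was 2.32 ± 0.23 (SE, adjusted p = 4.24e-06, edgeR). Mcm3, another subunit, stood at 791 to 1218 CPM in S, 80.2 to 552 CPM in G1 and 272 to 645 CPM in G2M. Its log2 difference from G1 was 1.58 ± 0.23 (SE, adjusted p = 0.000194, edgeR). Orc6 of the origin recognition complex, the loading factor Cdt1 and Mcm8 completed the 5. Of 12 genes of helicase activation, 4 rose and none fell, namely Recql4, Mcm10, Topbp1 and Wdhd1, with a median of 1.91. Mcm10, which is needed for the helicase to start unwinding, was at 51.8 to 144.8 CPM in S and 0 to 17.9 CPM in G1.

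The replication fork and its supply followed the same direction. Of 21 polymerase and fork genes, 10 rose and none fell, with a median log2 difference of 1.57. Lig1, the ligase that joins Okazaki fragments, was at 237 to 394 CPM in S against 18.5 to 164.2 CPM in G1, and Rfc3, a subunit of the clamp loader, at 258 to 332 against 53.4 to 138.1 CPM. Of 9 genes of nucleotide supply, 5 rose and none fell (among them Tk1, Dctpp1, Dut and Dtymk), with a median of 1.75. Dut, which keeps uracil out of DNA by breaking down dUTP, stood at 429 to 814 CPM in S and 76.8 to 210 CPM in G1. Tk1, the thymidine kinase, stood at 73.3 to 267 and 0 to 25.5 CPM. Neither pair of ranges overlapped.

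Of 18 measured genes that assemble or copy chromatin, 13 rose and none fell, with a median log2 difference of 1.36. They included the histone chaperones Asf1b and Chaf1a, the maintenance DNA methyltransferase Dnmt1 and the histone variant H2afz. Asf1b was at 306 to 525 CPM in S and 10.9 to 151.9 CPM in G1, with no overlap. H2afz was at 2900 to 8528 CPM in S and 784 to 1615 CPM in G1, also with no overlap.

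Repair genes of homologous recombination and the Fanconi pathway rose in 8 of 20 cases, among them Fanci, Brca1 and Rad54l, and none fell. Their median log2 difference of 4.66 rests on G1 levels near 0: Fanci, for example, had a median of 42.7 CPM in S and was at 0 in 6 of 8 G1 sums. In the list of the S phase checkpoint only Chek1, its effector kinase, rose out of 12. Over all genes outside the score lists 4.17% were higher in S. A single riser in 12 is therefore not read as a result about this list or the next. Of 12 genes that act on mutated antibody genes, Polh rose (log2 difference 1.10 ± 0.32 SE, adjusted p = 0.049, edgeR), a polymerase that copies across damaged bases. Polh was at 22.9 to 133.9 CPM in S and 16.3 to 100 CPM in G1, with overlapping ranges. In experiment 3 at 30 h it was lower in S (34.1 against 62.6 CPM), and in every other pair it was higher.

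Of 27 measured regulators of the G1 to S transition, 9 rose and none fell, with a median log2 difference of 1.31. Ccnd3, the D-type cyclin named in the study's title, was at 782, 982 and 1244 CPM (lowest, median and highest) in S, 417, 547 and 869 CPM in G1, and 562, 735 and 1001 CPM in G2M. Its ranges overlapped, but S was higher than G1 in 8 of 8 pairs, with a log2 difference of 0.72 ± 0.15 (SE, adjusted p = 0.00486, edgeR). Without the 30 h sums the adjusted p of Ccnd3 was 0.0573. S was also higher than G2M in 7 of 7 pairs, by 0.41 ± 0.16 (SE), which did not pass (adjusted p = 0.67, edgeR). Cdk4 and Cdk6, the kinases that pair with D-type cyclins, rose by 1.298 ± 0.19 and 1.45 ± 0.37 on the log2 scale (SE). The other risers were the transcription factors E2f3, E2f7, Tfdp1 and Mybl2, the S phase cyclin Ccna2 and the mitotic inhibitor Fbxo5. Ccnd2, the other D-type cyclin followed here, was at 0 in 5 of 8 S sums and at 53.6 CPM in that of experiment 4 at 12 h, with reads in 4.68% of S phase cells, 7.27% of G1 cells and 3.64% of G2M cells. Myc, which drives growth in selected cells, was at 36.5 to 106.4 CPM in S and 0 to 158.9 CPM in G1. Reads of Myc were found in 30.4% of S phase cells (23.6 to 37.9), 8.48% of G1 cells (4.72 to 13.8) and 13.3% of G2M cells (8.55 to 19.5). Its log2 difference from G1 was 2.72 ± 1.23 (SE) and did not pass (adjusted p = 0.249, edgeR), while DESeq2 gave an adjusted p of 0.0224.

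Promoters of these genes were searched for the E2F motif, written as TTTGGCGC, TTTCCCGC, TTTGCCGC or TTTCGCGC on either strand, in the 250 bases before each RefSeq start site (GRCm38.p6). It was found for 312 of 7360 tested genes that had an entry (4.24%), for 9 of 33 genes of the S score list (27.3%) and for 3 of 47 genes of the G2M score list (6.38%). Of the 299 genes with an entry among the 383 unscored genes higher in S, 32 held it (10.7%). Among the 37 replication and chromatin genes that rose, 31 had an entry and 7 of these held the motif. The 30 bases around the match are shown for those 7 and for Cdc6 and Uhrf1 of the S score list. Capitals mark the motif, read 5′ to 3′ on the strand of the gene. The stretch shown overlapped annotated exons for Mcm7, Topbp1, Pole4, Rfc3, Dnmt1 and Ssrp1. For Cdc6 and Uhrf1 it overlapped no exon but lay inside the annotated genes, which start at 98907801 and 56303321. The match lay before 1 of 3 start sites for Dnmt1 and before 1 of 2 for Uhrf1, Mcm7, Suv39h1 and Ssrp1. A match is a description of the sequence only.
Cdc6, chr11:98908002-98908031, plus strand: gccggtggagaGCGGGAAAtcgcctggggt
Uhrf1, chr17:56304117-56304146, plus strand: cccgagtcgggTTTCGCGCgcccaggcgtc
Mcm7, chr5:138172030-138172059, minus strand: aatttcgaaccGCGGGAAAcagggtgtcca
Topbp1, chr9:103305187-103305216, plus strand: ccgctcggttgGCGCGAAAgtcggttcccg
Pole4, chr6:82652890-82652919, minus strand: ctctacccggcGCGGGAAAggggccgaaat
Rfc3, chr5:151651209-151651238, minus strand: ccggaagtgacgtcgcacgcTTTCGCGCtc
Dnmt1, chr9:20952824-20952853, minus strand: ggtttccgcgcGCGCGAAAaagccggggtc
Suv39h1, chrX:8074407-8074436, minus strand: ggaaggccggcGCGGCAAAcgtgggggccg
Ssrp1, chr2:85037209-85037238, plus strand: gggctgcgcacGCGGGAAAagcttccccgg
Mcm2 had an entry with no match in this window.

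The largest rises outside the score lists were of genes at or near 0 in G1. By the rule of the 10 largest rises with the same sign in all 8 pairs and a mean of at least 20 CPM in either phase, these were Pbk, Ankle1, Lrr1, BC030867, E2f7, Zfp850, Stil, Zwilch, Aunip and Pask. Pbk, a mitotic kinase, was at 42.3 to 193 CPM in S, 0 in every G1 sum and 95.8 to 246 CPM in G2M. Reads of Pbk were found in 41.5% of S phase cells and 52.1% of G2M cells, and in 0% of G1 cells, which by the limit of 3 counts of the total allows a share of up to 1.82%. With a floor of 3 counts set over all G1 sums, the ratio of scaled Pbk reads, S over G1, was 1462. The same floor gave ratios of 484 for Ankle1, 429 for Lrr1, 367 for BC030867, 342 for E2f7 and 273 for Zfp850. Stil, which centriole duplication needs, had 37.1 ± 25.9 CPM in S (SD, n = 8) and was at 0 in 7 of 8 G1 sums. The ratios against the floor cover the counting of reads and not the number of cells. Reads carry no molecular identifiers here, so these ratios are not lower limits of the change per cell. Reads of Zfp850 were found in 11.1% of S phase cells, and zinc finger genes of this kind have close copies between which reads can be split.

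Of 43 mitotic genes outside the score lists, 32 were higher in S than in G1 and none lower, and none of the 43 passed between S and G2M, where 41 had a log2 difference below 0 and the median was -1.51. Plk1, the mitotic kinase, was at 19.8 to 110 CPM in S, 0 to 19.96 CPM in G1 and had a median of 426 CPM in G2M, where even the lowest sum lay above the highest in S. A G2M score above 0 was held by 76 of the S phase cells and, by the phase rule, by no G1 cell, and the part of these cells in the mitotic levels was not tested. Ccnb1, the mitotic cyclin, was at 83.6 to 282 CPM in S, 0 to 86.97 CPM in G1 and 554 to 1024 CPM in G2M. The S and G2M ranges of both genes did not overlap, although their differences did not pass (adjusted p = 0.301 and 0.448, edgeR). Over all genes tested, the S sums lay wholly below the G2M sums for 0.722% and wholly above for 0.226%.

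**Figure D2:**
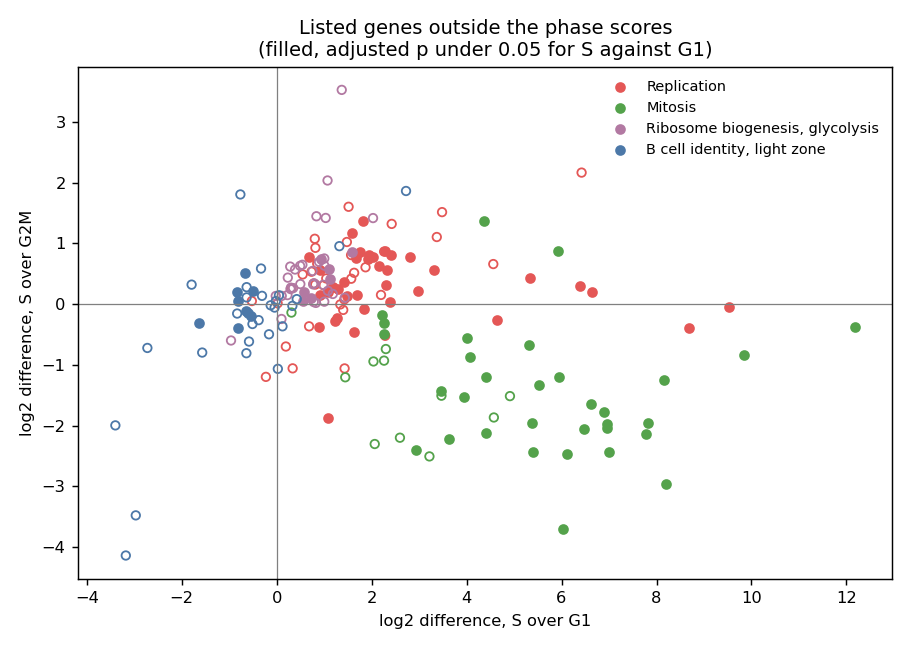
Log2 difference of S over G1 (x axis) against S over G2M (y axis) for listed genes outside the phase scores, 1 point per gene; filled points passed an adjusted p of 0.05 for S against G1. Both axes use the same S sums. Replication genes lie mostly to the right and mostly above 0 on the y axis (10 of 12 licensing genes and 19 of 21 fork genes), mitotic genes lie to the right and mostly below 0 (41 of 43), and B cell identity and light zone genes lie mostly to the left.

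Some B cell identity and light zone genes were lower in S than in G1. Of 14 genes of B cell and germinal center identity, 6 fell and none rose, among them the B cell receptor components Cd79a and Cd79b, the surface protein Ms4a1, and the transcription factors Ebf1 and Spib. Cd79a was at 637 to 1254 CPM in S and 1093 to 2162 CPM in G1, lower in 8 of 8 pairs (log2 difference -0.64 ± 0.10 SE, adjusted p = 0.000321, edgeR). The summed CPM of the list was 7715 to 11200 in S, 10670 to 16860 in G1 and 8195 to 10550 in G2M. Of 22 measured light zone genes, Fcer2a, Nfkbia and Cd83 fell and none rose. Cd83, the surface marker by which light zone cells are gated, was at 372 to 1640 CPM in S and 535 to 3166 CPM in G1. Its log2 difference was -0.67 ± 0.19 (SE, adjusted p = 0.0353, edgeR), and without the 12 h sums the adjusted p was 0.0997. With the cells left out that the authors had marked for both zones (35 of the S phase cells), it was 0.436. Of 16 dark zone genes, Gcsam rose and Foxp1 fell. Over all genes outside the score lists 4.17% rose and 1.64% fell, so these counts are not read as a result about the dark zone list. Foxp1, a transcription factor of resting B cells, was at 79.5 to 197 CPM in S and 244 to 595 CPM in G1, with no overlap. Cxcr4, the receptor that holds cells in the dark zone, was at 10.7 to 57.6 CPM in S and 2.04 to 125.9 CPM in G1, and its difference did not pass (adjusted p = 0.933, edgeR).

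The 10 largest falls from G1 were Tcp11l2, Zfp984, Pdcd4, Uba7, Malat1, Fcer2a, Rnase6, Mxd4, Atp8a1 and Ngly1. Malat1, a nuclear noncoding RNA, was at 57.4, 232 and 515 CPM in S, 187.9, 837 and 2021 CPM in G1, and 174.8, 478 and 916 CPM in G2M (lowest, median and highest). The ranges overlapped, because levels differed widely between the sums, but S was lower in 8 of 8 pairs (log2 difference -1.64 ± 0.18 SE, adjusted p = 1.49e-05, edgeR). Fcer2a, the low-affinity IgE receptor CD23, was at 58.2 to 223 CPM in S and 185.4 to 639 CPM in G1. Mxd4, an antagonist of Myc at its binding sites, was at 13.1 to 66.1 CPM in S and 58.4 to 135.2 CPM in G1. Under the alternatives run, the fall of Mxd4 still passed in 3 and no longer passed in 14. That of Malat1 still passed in 16 and no longer passed in 1. Pdcd4, an inhibitor of translation, was at 2.56 to 17.1 CPM in S and 8.94 to 125.6 CPM in G1. Tcp11l2 was at 0 to 28.3 CPM in S and 56.4 to 122.9 CPM in G1, with reads in 6.43% of S and 16.97% of G1 cells.

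Of 25 genes of ribosome biogenesis, 3 rose against G1 (Ncl, Nop56 and Nop58), and of 14 genes of glycolysis, 4 rose (Ldha, Tpi1, Pkm and Gapdh). None fell in either list, and over all genes outside the score lists 4.17% rose. Ldha, lactate dehydrogenase, was at 980 to 2291 CPM in S and 563 to 768 CPM in G1, without overlap. Of 10 listed plasma cell genes 9 were in the table, and they summed to 1945 to 3189 CPM in S, 1751 to 9380 CPM in G1 and 1721 to 3814 CPM in G2M. Sdc1 and Tnfrsf17 of that list had no read in S, and none of its 5 tested members passed between S and either phase. Of 13 myeloid genes, 11 had no read in S phase cells, including Lyz2 and C1qa, and their summed level was 0 to 13.96 CPM in S and 0.256 to 42.2 CPM in G1. Of 10 stromal genes, 8 had no read in S, including Col1a1 and Pdgfrb, with a sum of 10.9 to 66.2 CPM. Of 15 T cell genes, 13 had reads, Cd4 and Zap70 had none, and their sum was 50.9 to 155.6 CPM in S, 86.9 to 263 CPM in G1 and 62.5 to 274 CPM in G2M. At least 3 of these genes had reads in 5 of the S phase cells. No doublet caller was run.

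Far fewer genes passed between S and G2M than between S and G1. Outside the score lists 13 of 9187 passed (0.142%), with 5 higher in S (0.0544%) and 8 lower (0.0871%), and all 13 had the same sign in 7 of 7 pairs. The median log2 difference over all genes tested was 0.00. In simulated data the test of S against G1 recovered 0 of 50 genes with a planted 1.5-fold change and 8 of 50 at 2-fold. It recovered 24 of 50 at 4-fold and 31 of 50 at 8-fold. No simulation was run for S against G2M. A gene that did not pass is therefore not shown to be equal between phases.

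The genes higher in S than in G2M were Mcm3, Npm1, Gas5, Ubtf and Cbx2. Mcm3 had no overlap with G2M (791 to 1218 against 272 to 645 CPM; log2 difference 1.16 ± 0.24 SE, adjusted p = 0.0426, edgeR). Npm1, the nucleolar histone chaperone nucleophosmin, was at 1707 to 4315 CPM in S, 1015 to 2046 CPM in G1 and 1294 to 2918 CPM in G2M, with overlapping ranges. Gas5, a noncoding RNA that hosts small nucleolar RNAs, was at 183.7 to 458 CPM in S and 80.4 to 158.2 CPM in G2M. Ubtf, the factor that activates ribosomal DNA transcription, was at 79.9 to 219 CPM in S and 20.4 to 94.8 CPM in G2M. Neither Gas5 nor Ubtf passed against G1 (adjusted p = 0.478 and 0.578, edgeR). Cbx2, a Polycomb protein, was at 11.6 to 45.1 CPM in S and at 0 in 5 of 7 G2M sums.

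The genes lower in S than in G2M were Odf2, H2afx, Polh, Arl6ip1, Cdc25b, Bub3, Lrmp and Ubb. H2afx, the histone variant phosphorylated at DNA breaks, was at 193, 261 and 421 CPM in S, 58.2, 142.7 and 212 CPM in G1, and 547, 916 and 1454 CPM in G2M. Its S sums stood between the other phases, above G1 in 8 of 8 pairs and below G2M in 7 of 7 (log2 difference from G2M -1.87 ± 0.19 SE, adjusted p = 3.82e-05, edgeR). Polh was at 22.9 to 133.9 CPM in S and 163.5 to 583 CPM in G2M, again without overlap. Arl6ip1, a protein that shapes the endoplasmic reticulum, was at 269 to 546 CPM in S, 503 to 653 CPM in G1 and 944 to 1453 CPM in G2M. It was lower in S than in either phase, by 0.50 ± 0.12 against G1 (adjusted p = 0.0122) and 1.56 ± 0.12 against G2M (adjusted p = 1.2e-06) on the log2 scale (SE, edgeR). In experiment 4, S and G1 were nearly equal at 12 h (546.4 and 547.6 CPM) and at 60 h (510.9 and 508.3 CPM). In every other pair Arl6ip1 was lower in S than in G1. Cdc25b, the phosphatase that activates mitotic kinases, was at 166.2 to 426 CPM in S and 295 to 719 CPM in G2M. Bub3, of the spindle checkpoint, was at 321 to 606 and 625.1 to 1043 CPM, and Lrmp, a protein of germinal center B cells, at 311 to 544 and 679 to 948 CPM; neither pair overlapped. The median percent of mitochondrial reads was higher in S than in G2M in 8 of 8 pairs, by 0.432 ± 0.295 points (SD, n = 8), and its part in these results was not tested.

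The number of genes passing depended on how the sums were taken. Without experiment 3 none of the unscored genes passed between S and G2M, and without experiment 4 there were 3; between S and G1 there were 64 and 120. Of the 20 named rises and falls between S and G1, 8 passed without experiment 3 and 5 without experiment 4. Without the block for experiment and time 4 genes passed between S and G2M and 327 between S and G1. With the cells marked for both zones left out, 16 passed between S and G2M and 372 between S and G1. Of these, 8 and 311 had also passed with all cells.

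The FUCCI signal, a fluorescent reporter whose level follows the cell cycle, was read by the sorter. The labels do not say which reporter protein was recorded. In experiment 3 the medians of S phase cells at the 4 times ran from 110 to 197 units, while over all times the median was 96 in G1 and 5896 in G2M. In experiment 4 the medians over all times were 246.5 in S, 140.5 in G1 and 1420.5 units in G2M. S was above G1 in 8 of 8 pairs of experiment and time, by 0.75 ± 0.43 on the log2 scale (SD, n = 8 pairs; adjusted p = 0.0469 over 6 comparisons, exact sign-flip permutation test, two-sided), which is the smallest p this design allows before adjustment (0.00781). With the mean over cells in place of the median this difference was 1.76 ± 0.81 (SD, 7 of 8 pairs higher). Without the cells marked for both zones it was 0.61 ± 0.69 (SD, 7 of 8 pairs higher, unadjusted p = 0.0469, same exact test). S was below G2M in 7 of 8 pairs, with a log2 difference of -3.41 ± 2.32 (SD), which did not pass (adjusted p = 0.0703, same exact test). With the mean in place of the median S was below G2M in 8 of 8 pairs (-2.28 ± 0.66 SD, unadjusted p = 0.00781, same exact test).

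S phase cells were mixed in this signal. Above 1000 units, a level chosen after the values were seen, stood 27.2% of S phase cells in experiment 3 and 31.1% in experiment 4. In G1 these shares were 0% and 5.26%, and in G2M 64.9% and 50%. Within S phase, cells with a G2M score above 0 had a median of 1490 units in experiment 3 (n = 32 cells) and 1865 in experiment 4 (n = 44 cells). S phase cells with a G2M score at or below 0 had a median of 174.5 units in experiment 4 (n = 46 cells). In experiment 3 (n = 49 cells) 2 of them stood above 1000 units. The share above 1000 was 62.5% and 56.8% in the first set and 4.08% and 6.52% in the second. This split is given as a description without a test.

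**Figure D3:**
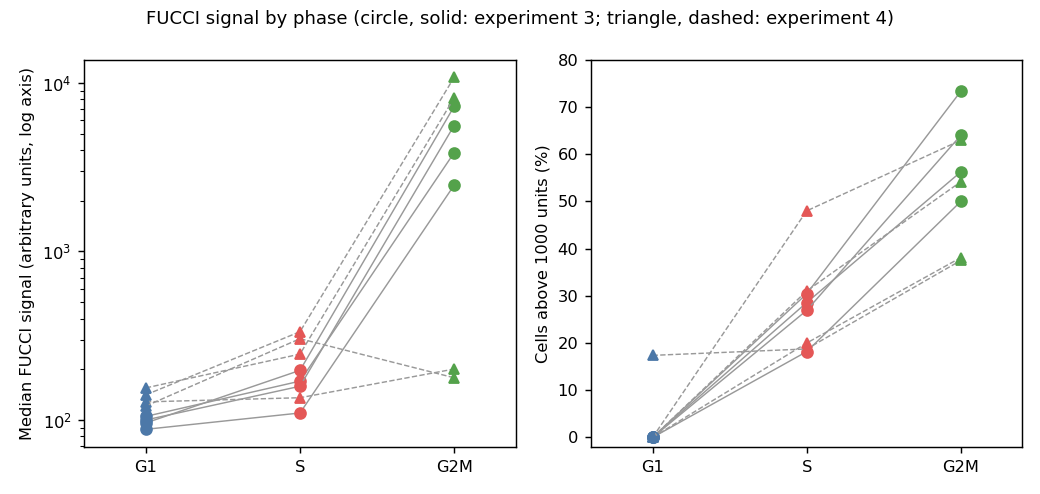
Left, median FUCCI signal in arbitrary units (y axis, log scale) by phase (x axis); right, percent of cells above 1000 units. Lines join the phases of 1 experiment and time, with circles and solid lines for experiment 3 and triangles and dashed lines for experiment 4. S phase medians lie above G1 in 8 of 8 lines and below G2M in 7 of 8.

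The surface proteins that define the zones were also recorded. CXCR4 was higher in S than in G1 in 7 of 8 pairs, by 0.35 ± 0.40 on the log2 scale (SD, n = 8), which did not pass (adjusted p = 0.0781, exact sign-flip permutation test). Against G2M the CXCR4 difference was -0.05 ± 0.41 (SD, adjusted p = 0.75, same exact test). CD83 protein was higher in S than in G1 in 5 of 8 pairs, by 0.28 ± 0.77 (SD, adjusted p = 0.413, same exact test), whereas Cd83 RNA was lower in 8 of 8 pairs.

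Over the times, S phase cells made up 25.6%, 33.9%, 31.5% and 37.7% of the dark zone cells of experiment 3 at 12, 30, 46 and 60 h, and 29.1%, 37.3%, 37.04% and 37.2% of those of experiment 4. The share was lowest at 12 h in both experiments. Its exact 95% intervals were wide, at 13.5 to 41.2% for the lowest and 26.3 to 50.2% for the highest. The mean slope was 0.184 percentage points per hour (p = 0.0295, two-sided exact permutation test that rearranged the times inside each experiment, with 17 of 576 arrangements as large). The slope was 0.126 with p = 0.0642 (same exact test) when wells of both zones formed the denominator, and 0.158 with p = 0.0677 when cells within 0.05 of a cut were left out. G1 cells made up 60.5%, 40.3%, 27.4% and 26.1% at 12, 30, 46 and 60 h in experiment 3, and 41.8%, 22.4%, 24.1% and 32.1% in experiment 4 (slope -0.466 points per hour, p = 0.0556, same exact test). G2M cells made up 13.95%, 25.8%, 41.1% and 36.2% in experiment 3, and 29.1%, 40.3%, 38.9% and 30.8% in experiment 4. The G2M slope was 0.281 points per hour (p = 0.135, same exact test). These p-values were not adjusted over the phases. Between plates the S phase share ran from 20.4 to 45.1%, and each plate held all conditions of its experiment per the labels.

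**Figure D4:**
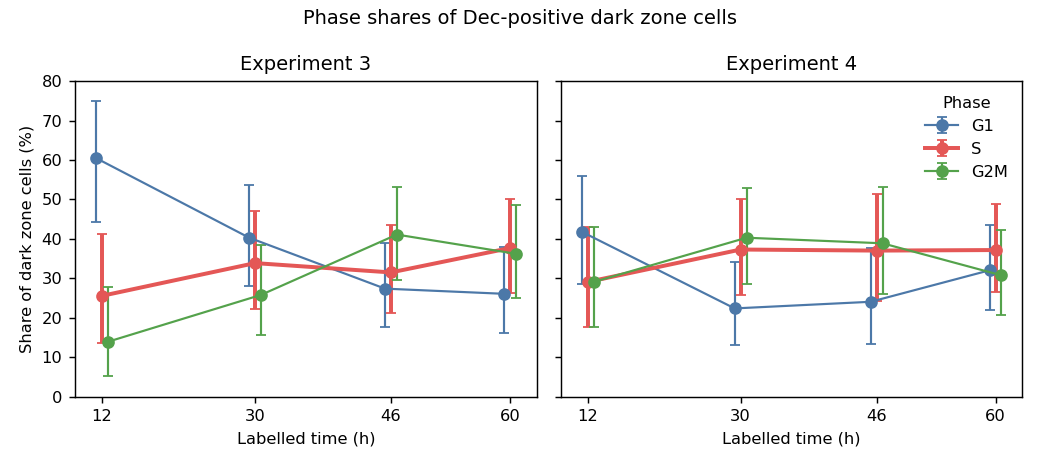
Percent of Dec-positive dark zone cells in G1, S and G2M (y axis) at the labelled times (x axis, h) in experiments 3 and 4; bars are exact 95% binomial intervals. The S phase share is lowest at 12 h in both experiments (25.6% and 29.1%) and between 31.5% and 37.7% afterwards.

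Within S phase no gene passed over the times. Of 5735 genes tested in the 8 S sums, 0 (0%) passed an adjusted p of 0.05 for a linear slope, and 0 for 30, 46 or 60 h against 12 h (edgeR's quasi-likelihood test). Unadjusted p-values below 0.05 were found for 304, 366, 669 and 303 genes. DESeq2 passed 8, 30, 99 and 12 genes outside the score lists. The difference between S and G1 also changed with time for 0 of 9285 genes (402 at an unadjusted p below 0.05, and 239 unscored genes by DESeq2). The 12 h sums held the fewest S phase cells. In simulated data the slope test recovered 0 of 50 genes with a planted 1.5-fold change and 2 of 50 with a 2-fold change. It recovered 17 of 50 at 4-fold and 39 of 50 at 8-fold. Most planted changes of 4-fold or less were thus missed. The absence of a passing gene therefore does not show that levels in S phase stayed constant over the times.

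Cdc6 and Uhrf1 were lowest at 46 h in experiment 4, while in experiment 3 their 46 h level was within the range of the other times or close to it. In the fit over S sums, scaled among themselves, Cdc6 was at 231, 276, 253 and 233 CPM at 12, 30, 46 and 60 h in experiment 3, and 259, 270, 80 and 208 CPM in experiment 4. Uhrf1 was at 456, 524, 440 and 423 CPM in experiment 3, and 573, 570, 252 and 460 CPM in experiment 4. Ccnd3 was at 1335, 838, 1039 and 1007 CPM in experiment 3 and 853, 1219, 1213 and 840 CPM in experiment 4, so 12 h was its highest time in experiment 3 and close to its lowest in experiment 4. Its slope was -0.17 ± 0.31 log2 per 48 h (SE, adjusted p = 0.963, edgeR). Cd83 was at 946, 982, 418 and 898 CPM in experiment 3 and 1789, 773, 390 and 546 CPM in experiment 4. It was lowest at 46 h in both (log2 difference from 12 h -1.77, adjusted p = 0.146, edgeR).

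Without a passing gene, the rule for times ranked genes with an unadjusted p below 0.05 (edgeR) and the same sign in both experiments. Among these the largest slopes were upward for Ccdc66, Stn1 and Hdac2 and downward for Mlst8, Zfp84 and Zfp729a. Hdac2, a histone deacetylase, was at 8.32, 55.04, 74.4 and 61.2 CPM in experiment 3 and at 8.77, 123.3 and 178.2 CPM at 12, 30 and 60 h in experiment 4. Reads of Hdac2 were found in 1 of 11 and 2 of 16 S phase cells at 12 h, and in 8 of 26 and 12 of 29 at 60 h. Stn1, of the complex that helps fill in telomere ends, was at 3.33, 81.9, 58.8 and 102.5 CPM in experiment 3 and 3.88, 30.4, 70.1 and 65.1 CPM in experiment 4. Both genes were lowest at 12 h in both experiments, and their adjusted p for 46 h against 12 h was 0.146 (edgeR). Mlst8, a subunit of the mTOR complexes, was at 60.7, 8.15, 13.6 and 4.54 CPM in experiment 3 and 59.8, 42.1, 2.84 and 6.32 CPM in experiment 4. Among single times the rule also gave Treml2, Tprgl, Taf9b, Tmod1, Zfp64, Zfp53, Asxl1, Aptx and Ube2d-ps, with adjusted p from 0.234 to 0.916 over these comparisons (edgeR).

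**Figure D5:**
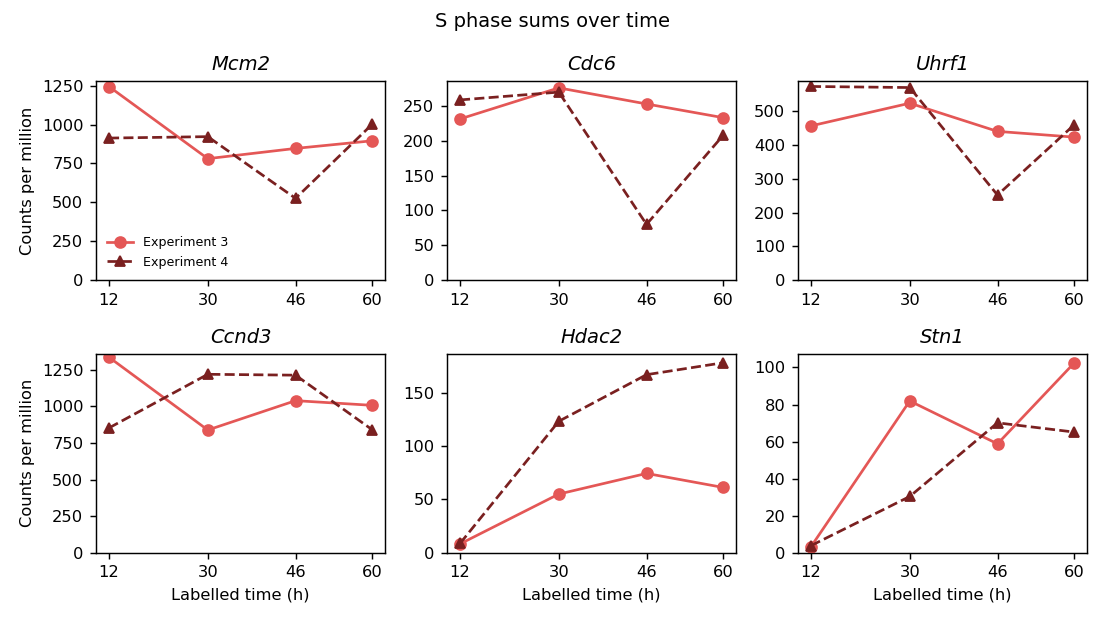
Level in CPM (y axis, linear, from 0) of 6 genes in the S phase sums at the labelled times (x axis, h); circles and solid lines are experiment 3, triangles and dashed lines experiment 4, 1 sum per point. Hdac2 and Stn1 are lowest at 12 h in both experiments (Hdac2 at 8.32 and 8.77), while Mcm2, Cdc6 and Uhrf1 have their lowest point of 8 at 46 h in experiment 4.

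The lists were described over the times by their medians. Of 15 light zone genes tested in S phase sums, 14 were lower at 46 h than at 12 h, with a median log2 difference of -1.0 (-0.54 in experiment 3 and -0.87 in experiment 4), against 0.00 over all genes, and none passed. Their median was -0.23 at 30 h and -0.10 at 60 h, where 7 of 15 were above 0 (0.02 in experiment 3 and -0.55 in experiment 4). Of 15 dark zone genes, 12 had an upward slope, with a median of 0.34 log2 per 48 h against 0.01 over all genes, and none passed. That median was 0.55 in experiment 3 and 0.14 in experiment 4, and at 30 h against 12 h the median difference was -0.07, with 7 of 15 above 0. The 9 licensing genes had a median slope of -0.28, and the 21 fork genes one of -0.07.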

How the data were processed

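The authors deposited expected counts of each gene in each well, a score per cell for S and for G2M, the percent of mitochondrial reads and the sorter's intensity for FUCCI, CXCR4 and CD83 in arbitrary units. Per the submitters' processing notes, STAR 2.6, RSEM 1.3.1, Seurat 3.1.4 and mm10 were used, with no roles given. The combined count table of 25125 genes was used, with 501 of its 1220 columns of wells (719 were not used here). Counts were rounded, summed per experiment, time and phase (sums of at least 10 cells), and, after filterByExpr and TMM scaling, compared by edgeR 4.0.16 (R 4.3.3), with experiment and time as block for phases and experiment as block for times. The phases of a block come from the same plates. Across genes, sums of the same block deviated together at r from 0.01 to 0.213 (median 0.072, 22 pairs). Scripts were tested on simulated data. The members and gene lists were chosen with earlier results of these data known. Named genes were the 10 largest rises and falls outside the score lists with an adjusted p below 0.05, a mean of at least 20 CPM in either phase and the same sign in every pair, the markers, and members of the lists. For times, where no gene passed, they were the 3 largest in each direction among genes with an unadjusted p below 0.05 (edgeR). These also had the same sign in both experiments. Coordinates and promoters come from RefSeq on GRCm38.p6. Ranges in the text are the lowest and highest sums. Some members of the lists are counted but not reported here by name.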

Additional observations from a re-analysis of the deposited data

Results flagged for a closer look

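In 13 of 120 groups of sums of named genes, 1 sum stood far from the others of its phase by Dixon's test; chance flags about 1 in 20 groups, and the groups share sums. In the S sums, Cdc6 was at 76.3 CPM in experiment 4 at 46 h, against 196 to 262 CPM in the others. Cd83 was at 1640 CPM in experiment 4 at 12 h, against 372 to 930 CPM. Ccnd2 was at 53.6 CPM in that same sum, against 0 to 5.92 CPM. Cdc25b was at 426 CPM in experiment 4 at 60 h, against 166.2 to 284 CPM, and BC030867 at 79.04 CPM in experiment 4 at 46 h, against 13.1 to 40.3 CPM.

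In the G1 sums with which S was compared, Myc was at 158.9 CPM in experiment 4 at 12 h, against 0 to 60.6 CPM in the others. Zfp984 was at 337 CPM in experiment 4 at 46 h, against 23.6 to 150.6 CPM. Cbx2 was at 15.01 CPM in experiment 4 at 30 h, against 0 to 0.761 CPM, and Pask at 5.11 CPM in experiment 3 at 60 h, against 0 to 0.990 CPM. Aunip was at 1.41 CPM and Zwilch at 0.53 CPM in experiment 4 at 60 h, and Stil at 0.283 CPM in experiment 3 at 30 h, with the other sums of Zwilch and Stil at 0. In the G2M sums, Ccnd2 was at 32.6 CPM in experiment 3 at 30 h, against 0 to 2.95 CPM in the others.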

How the results depend on the processing

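No result that passed its test changed sign under the alternatives run. Among those that did not pass, CD83 and CXCR4 against G2M were -0.06 and 0.13 without cells marked for both zones, and genes detected against G2M differed by -28.5 without experiment 3. Between S and G1, 5.81% of genes outside the score lists passed. The share was 3.56% with no replicate block, 14.1% with DESeq2, 3.05% with sums of at least 20 cells, 10.9% with cells thinned to 10000 reads (fewer genes were tested), and 2.14%, 3.31% and 3.28% without the 30, 46 and 60 h sums; it was 0.695% to 1.28% without 1 experiment. Between S and G2M, 0.142% passed. The share was 0.0435% with no replicate block, 1.13% with DESeq2, 1.22% with thinned cells and 0.0665% without cells within 0.20 of a cut, an alternative chosen after seeing the data. It was 0.0764%, 0.0326%, 0.0752% and 0.0217% without the 12, 30, 46 and 60 h sums, and 0% to 0.0321% without 1 experiment. Within S phase DESeq2 passed 0.142% for the slope, 0.531%, 1.75% and 0.213% for 30, 46 and 60 h against 12 h, and 2.602% for the interaction. Leaving out 1 sum gave 0% to 0.406%, 0% to 0.562% and 0% to 0.118% for 30, 46 and 60 h, with the lone sum of a time assumed to vary like the others. The slope of the S phase share was 0.126 over wells of both zones, 0.158 without cells within 0.05 of a cut, and 0.156 to 0.213 in 1 experiment, where the exact test cannot fall below the p of its 24 arrangements. With 1 experiment left out, the log2 difference in FUCCI was 0.68 to 0.83 against G1 and -4.42 to -2.39 against G2M, that in CXCR4 against G1 0.18 to 0.52, and genes detected differed by 618 to 759; 4 pairs cannot give a p below 0.125. Without cells marked for both zones, chosen after seeing the data, CXCR4 differed by 0.32. The cause of these changes was not tested, and some of the alternatives also held fewer sums. CD86 and forward scatter were not analysed here. Read depth limits genes found in few cells.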
